A study of Canis lupus familiaris with 6 samples.

Results

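OAZ3, PDE6B, APOH, FHIT and VNN1 are 5 dog genes whose signal was higher at 60 h than at 30 h of culture in both arms of a scribble knockdown time course. They were selected on that rise, measured as 60 h minus 30 h on these arrays, so the rise itself is given here as a description and is not tested. They are 5 of 1436 genes that could be named on the array and measured on all 6 arrays (1437 before outlier spots were left out), and they are read by 11 of its 43603 probes. All 6 arrays come from MDCK-II scribKD cells, a dog kidney epithelial line that makes a short hairpin RNA against scribble, a polarity scaffold protein, when tetracycline is present. One arm was left without tetracycline (0 µg/ml) and the other received 5 µg/ml from 6 h after plating, and total RNA was taken 30, 45 and 60 h after that point. Each array holds RNA mixed from 3 wells, there is 1 array per arm and time, and both arms carry the hairpin, so the arms differ in tetracycline and in whatever the hairpin does together.

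The 5 genes belong to unrelated families. OAZ3 encodes the antizyme best known from haploid male germ cells; antizymes bind ornithine decarboxylase and lower cellular polyamines. PDE6B encodes the catalytic beta subunit of the rod photoreceptor cyclic GMP phosphodiesterase, and APOH encodes a plasma glycoprotein, made mainly by the liver, that binds anionic phospholipids. FHIT encodes a hydrolase of diadenosine polyphosphates and spans a common fragile site often lost in epithelial tumours. VNN1 encodes a pantetheinase anchored at the cell surface that releases cysteamine and pantothenate, is abundant in the kidney proximal tubule and is a known target of the lipid sensor PPAR-alpha.

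On each array 64.3% to 68.8% of the 43803 non-control spots lay well above background, and no spot (0) reached saturation. Of 17 kidney tubule epithelial markers, 9 had a named probe. All 9 (among them CDH1, OCLN, TJP1, MUC1 and FXYD2) were well above background on all 6 arrays. So were the fibroblast markers COL1A1, COL1A2, THY1 and PDGFRB, the leukocyte markers CD4 and CD8A, and the endothelial markers VWF and KDR. The fibroblast marker DCN and the leukocyte marker MS4A1 were named and not tested for want of signal. Signal above background therefore does not tell cell types apart here. SCRIB has no named probe and was not analysed here, so the depth of the knockdown is not given. Time and slide are mixed: the first slide holds both 30 h arrays and the 45 h array without tetracycline, and the second holds the 45 h array with tetracycline and both 60 h arrays. For each gene, only the step from 30 to 45 h without tetracycline and the step from 45 to 60 h with tetracycline therefore lie within 1 slide. In bulk RNA, more cells that express a gene and more RNA of it per cell cannot be told apart.

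OAZ3 was read by 1 probe, well above background on all 6 arrays. Without tetracycline its processed signal, in the scanner's linear units, was 30.64 at 30 h, 56.04 at 45 h and 154.5 at 60 h. With tetracycline it was 35.09, 47.12 and 117.8 at the same times. Both 60 h arrays lay above all 4 earlier ones, both 45 h arrays lay above both 30 h arrays, and the arms at 1 time were closer to each other than to the next time. After scaling each array to its 75th percentile, the level without tetracycline rose 1.90-fold over the first 15 h and 2.88-fold over the second, 5.47-fold in all. The corresponding values with tetracycline were 1.38-fold, 2.66-fold and 3.67-fold. Over both arms the OAZ3 change from 30 to 60 h was 2.16 ± 0.17 on the log2 scale (SE, 2 arms), and it was 1.23 when a normexp background correction of the median spot signal, with an offset of 50, replaced the scanner's processed signal. OAZ3 was the 1 member of the 5 that was at least 1.5-fold higher on both steps that lie within a slide. Of all 27581 features tested 159 were (0.576%), and nothing is read from this because the members were chosen for rising.

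PDE6B was read by 3 probes, which did not show the same course. Its brightest probe gave signals of 18.63, 22.97 and 107.8 at 30, 45 and 60 h without tetracycline, and 17.27, 18.38 and 47.12 with it. The 4 arrays of 30 and 45 h lay close together and both 60 h arrays stood above them, the one without tetracycline highest. The step from 45 to 60 h was 4.90-fold without and 2.73-fold with tetracycline, whereas the steps from 30 to 45 h were 1.28-fold and 1.09-fold. The last of these, 0.13 on the log2 scale, was smaller than the scanner's error of 0.34 for that pair of arrays.

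The other PDE6B probes did not show this rise. Probe A_11_P146783 was well above background only at 45 h, with signals of 11.69 without and 19.55 with tetracycline. From 45 to 60 h it became at least 1.17-fold lower without tetracycline and at least 1.59-fold lower with it, where the bound sets the 45 h level against the dim probe's own 60 h signal or, if higher, the weakest signal that was still called well above background at 60 h. Probe A_11_P0000019662 was not well above background on any of the 6 arrays. Over both arms the PDE6B change from 30 to 60 h was 2.11 ± 0.28 (log2, SE, 2 arms) with the brightest probe, 0.88 with normexp, and 0.32 when the log2 values of all 3 probes were averaged. The PDE6B rise thus rests on 1 of its 3 probes.

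APOH was read by 2 probes. The brighter one gave 18.73, 25.61 and 53.7 at 30, 45 and 60 h without tetracycline, and 14.01, 28.6 and 62.83 with it. The 3 times were in the same order in both arms and did not overlap between times, although the 30 h signals were only slightly above the lowest signals called well above background on those arrays, 13.6 and 11.07. The rise from 30 to 60 h was 3.11-fold without and 4.90-fold with tetracycline, which makes APOH the member whose rise was larger with tetracycline. Its steps were 1.42-fold and 2.19-fold without tetracycline, and 2.09-fold and 2.34-fold with it. The second probe, A_11_P165168, was not well above background on any array. Over both arms the APOH change was 1.96 ± 0.19 (log2, SE, 2 arms) with the brighter probe, 0.76 with normexp and 0.93 with the mean of both probes.

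FHIT was read by 1 probe and was far above background throughout. Its signals were 114.1, 188.8 and 360.5 at 30, 45 and 60 h without tetracycline. With tetracycline they were 151.1, 273.2 and 364.2. The arms ended at nearly the same level at 60 h, and the array with tetracycline was the higher one at each time. FHIT rose 1.72-fold and 2.0-fold over the 2 steps without tetracycline, and 1.85-fold and 1.42-fold with it. By the brightest probe, FHIT was the member whose step before 45 h was the larger in an arm, and this held with tetracycline alone. In the other 9 of the 10 pairs of arm and member the larger step of that probe came after 45 h. Another VNN1 probe, A_11_P053163, also had the larger step before 45 h with tetracycline, 0.64 against 0.37 (log2). The FHIT change over both arms was 1.59 ± 0.15 (log2, SE, 2 arms).

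VNN1 was read by 4 probes, and all 4 were higher at 60 h than at 30 h in both arms. The brightest gave 245.4, 309.6 and 555.5 at 30, 45 and 60 h without tetracycline, and 208.1, 277.3 and 388.6 with it. Probe A_11_P053163 gave 59.73, 88.3 and 166.7 without, and 56.97, 86.39 and 104.5 with tetracycline. Probe A_11_P110404 gave 62.95, 92.06 and 160.9 without, and 67.37, 81.72 and 110.6 with tetracycline. In all 3 of these VNN1 probes, each well above background on all 6 arrays, the times kept 1 order and the 60 h array without tetracycline was the highest. The fourth probe, A_11_P110406, was well above background on 1 array, that of 60 h without tetracycline, at 15.49. From 30 to 60 h the brightest probe rose 2.45-fold without and 2.04-fold with tetracycline. The other probes that could be measured rose 3.02-fold and 2.77-fold without tetracycline, and 2.0-fold and 1.79-fold with it. The VNN1 change over both arms was 1.16 ± 0.11 (log2, SE, 2 arms), the smallest of the 5.

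**Figure D1:**
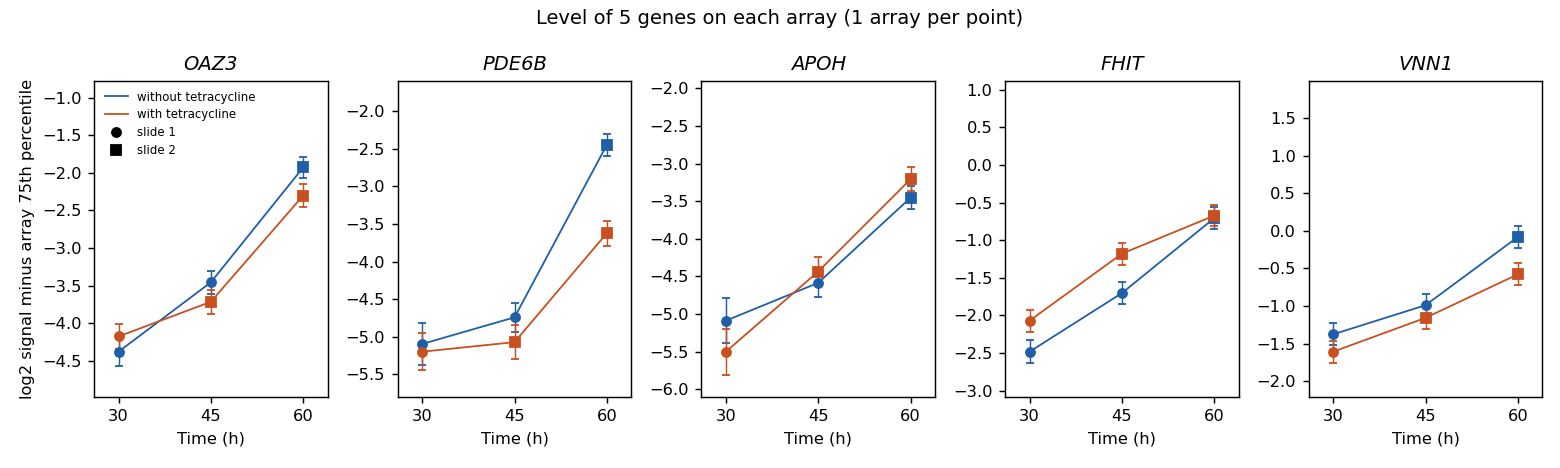
Level of each of the 5 genes on each array, by its brightest probe: time in h on the x axis and, on the y axis, the log2 signal relative to the 75th percentile of its array. Blue is without and orange with tetracycline, circles are arrays of the first slide and squares of the second, and bars are the scanner's own error of 1 array, not replicate error. In each panel the 60 h arrays lie above the 30 h arrays; for PDE6B the array without tetracycline at 60 h stands 1.17 above the one with it.

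**Figure D2:**
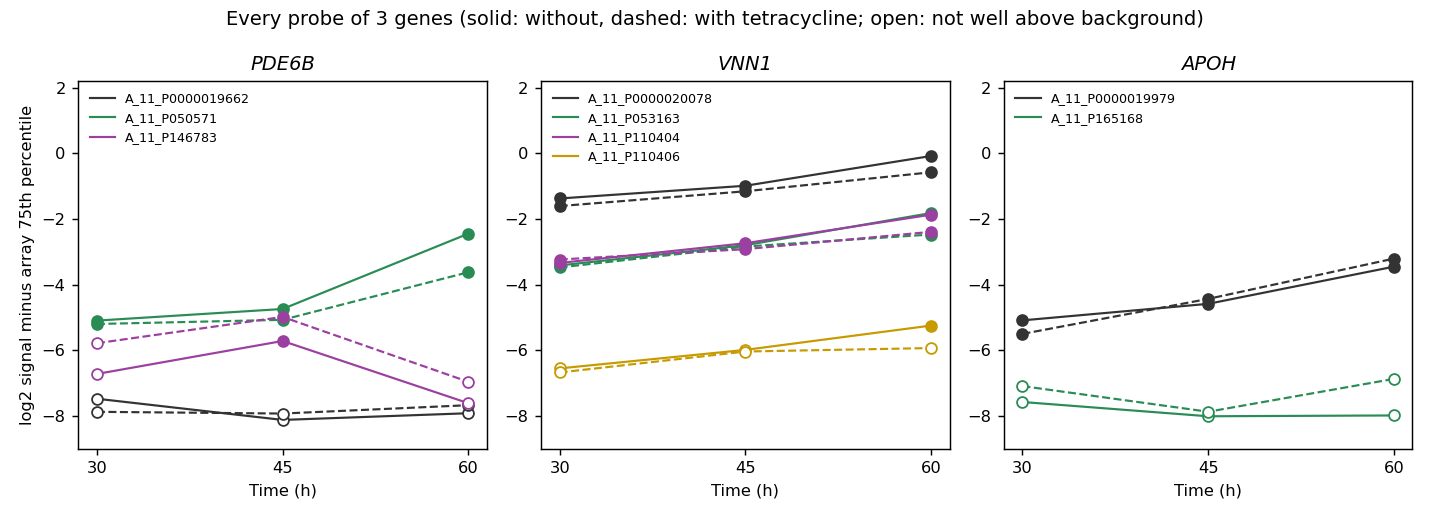
Every probe of the 3 genes with more than 1 probe, time in h against the log2 signal relative to the 75th percentile of its array; solid lines are without and dashed lines with tetracycline, and open symbols are arrays on which the probe was not well above background. The VNN1 probes rise together, while 1 of 3 PDE6B probes and 1 of 2 APOH probes are above background on all 6 arrays.

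Each of the 20 steps of 15 h, 2 steps in 2 arms for 5 genes, was above 0 by the brightest probe, and 19 of them were larger than the scanner's error of the pair of arrays. That error was 10% to 21.1% of the signal on 1 array for these probes and holds no spread between cultures. All 10 steps that lie within a slide were above 0 and larger than the scanner's error. The steps of an arm add up to the rise for which the genes were chosen, so these counts are a description and no test. The share of all features with steps above 0 or above the scanner's error was not counted. The share of features with a larger step than the member's ran from 0.025% to 29.2% over these steps. Both ends were PDE6B, at 45 to 60 h without and at 30 to 45 h with tetracycline. For the steps within a slide that share ran from 0.214% to 7.21%, again both PDE6B. On these steps OAZ3 rose 0.92 from 30 to 45 h without and 1.41 from 45 to 60 h with tetracycline (log2). The values in the same order were 0.35 and 1.45 for PDE6B and 0.50 and 1.23 for APOH. They were 0.78 and 0.51 for FHIT and 0.39 and 0.58 for VNN1. Over all features the median of these within-slide steps was 0.0023 and -0.012. When slide was added to the fit as a term, the change from 30 to 60 h was 2.34 ± 0.38 for OAZ3, 1.80 ± 0.61 for PDE6B and 1.73 ± 0.42 for APOH, and it was 1.29 ± 0.31 for FHIT and 0.97 ± 0.27 for VNN1 (log2, SE). With this layout each of these changes is the gene's 2 within-slide steps added together, 1 from each arm. They are therefore no separate check.

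Across the table, a limma fit with arm and time as terms called 1094 of 27581 features higher at 60 h than at 30 h at an adjusted p under 0.05 (3.97%), and 1160 lower. This is the comparison that chose the members, so nothing is read from their place in it. Among the 29 named genes called higher, OAZ3, PDE6B, APOH and FHIT had the 4 highest changes and VNN1 the 8th. Between FHIT and VNN1 lay SLC22A2 at 1.45, ADM at 1.26 and ALDOC at 1.24, and just below VNN1 lay CDKL4 at 1.14 and IL5 at 1.13 (log2). All 5 members were at least 2-fold higher at 60 h in each arm by the brightest probe, as were 232 of all features (0.841%). After normexp OAZ3 and FHIT still were. PDE6B with tetracycline was then at 0.62, APOH at 0.70 without and 0.82 with it, and VNN1 at 0.84 with it (log2), each less than 2-fold. Scaling by the array median put VNN1 with tetracycline at 0.984. The limma count fell to 0 with slide as a term and with any 1 of the 6 arrays left out, where 772 features and 2809 to 4317 features respectively were higher at an unadjusted p under 0.05. Scaling by the array median gave 934 higher and 1818 lower features, and the deposited series matrix gave 1227 and 827.

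**Figure D3:**
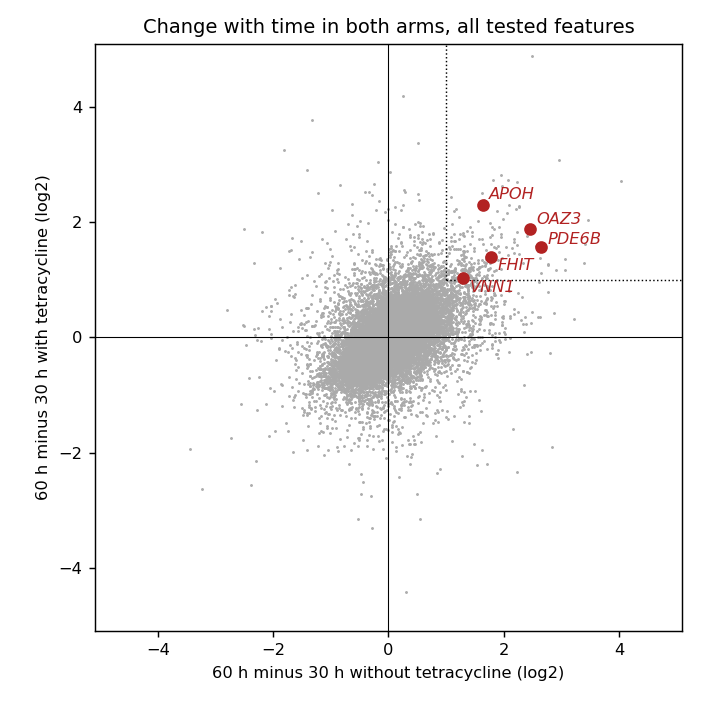
Change from 30 to 60 h in every tested feature (grey) and in the 5 genes (red), without tetracycline on the x axis and with it on the y axis, both in log2; dotted lines mark a 2-fold rise in each arm. The 5 genes lie in the corner past both lines together with the rest of the 232 features there, APOH above and PDE6B and OAZ3 to the right.

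The comparison of the arms asks whether a gene differed between cells with and without tetracycline over the 3 times, and it was not used to choose the members. None of the 5 passed: 0 of 27581 features did (0%), by limma with an adjusted p under 0.05, the smallest adjusted p being 0.109. At an unadjusted p under 0.05, 6422 features differed (23.3%), 3364 higher and 3058 lower with tetracycline, and 2 of the 5 members, FHIT and VNN1, were among them. Other settings of the limma fit called 133 features after normexp and 16 with a trended and robust prior. The mean difference, with minus without tetracycline, was 0.32 ± 0.12 for FHIT (log2, SE, 3 times, adjusted p = 0.212). It was -0.30 ± 0.094 for VNN1 (adjusted p = 0.179) and -0.54 ± 0.23 for PDE6B (adjusted p = 0.255). For OAZ3 it was -0.14 ± 0.14 (adjusted p = 0.563) and for APOH -0.0055 ± 0.15 (adjusted p = 0.987). The PDE6B value turned to 0.084 when its 3 probes were averaged. Arm is also partly mixed with slide, as the 45 h arrays of the arms lay on different slides. With slide as a term the difference was 0.22 ± 0.15 for FHIT, -0.36 ± 0.14 for VNN1 and -0.64 ± 0.30 for PDE6B. It was -0.0855 ± 0.19 for OAZ3 and -0.0836 ± 0.21 for APOH (log2, SE).

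The differences between the arms were not the same at each time. For PDE6B the difference by its brightest probe was -0.10 at 30 h, -0.33 at 45 h and -1.17 at 60 h. At 60 h the signal with tetracycline was 2.26-fold lower. Its probe A_11_P146783, well above background only at 45 h, had the opposite sign then, at 0.73 with a scanner's error of 0.38. At 30 and 60 h that probe was at 0.94 and 0.65. VNN1 was lower with tetracycline at each time by its brightest probe, with differences of -0.23, -0.17 and -0.50. All 4 of its probes were lower with tetracycline at 60 h, with differences between -0.50 and -0.69, although the faintest was above background there only without tetracycline. FHIT was higher with tetracycline at 30 h (0.41) and 45 h (0.52), and at 60 h the difference of 0.03 was within the scanner's error of 0.20. OAZ3 gave 0.20, -0.26 and -0.37, and APOH gave -0.41, 0.15 and 0.25. The signs at 30 and 60 h were opposite in these 2 of the 5 genes, as in 10685 of all features (38.7%), and both 30 h differences were within the scanner's error of 0.26 for OAZ3 and 0.43 for APOH. At 60 h, by the brightest probe, OAZ3, PDE6B and VNN1 were higher without tetracycline and APOH was higher with it. Each of these differences was larger than the scanner's error. With 1 array per arm and time, these differences at a single time have no replicate check, and the 45 h pair spans both slides.

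**Figure D4:**
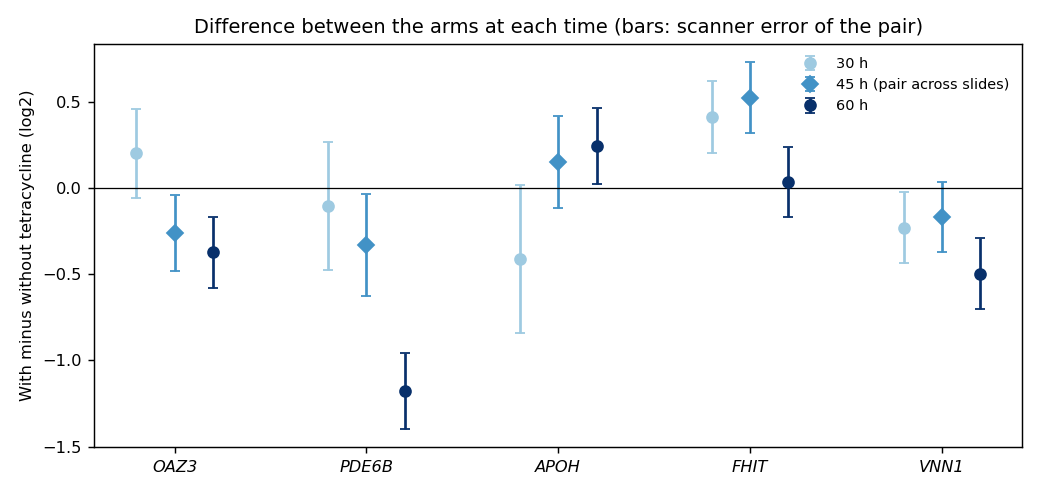
Difference between the arms for each of the 5 genes, by its brightest probe, at 30, 45 and 60 h. The y axis gives with minus without tetracycline in log2, and bars are the scanner's error of the 2 arrays compared. PDE6B at 60 h, at -1.17, lies farthest from 0; FHIT is above 0 at 30 and 45 h, and VNN1 is below 0 at each time.

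The comparison of 45 h with the other times asks whether 45 h lay midway between 30 and 60 h. By limma 0 of 27581 features departed from the midpoint at an adjusted p under 0.05 (0%), and 831 did at an unadjusted p under 0.05 (3.01%), OAZ3 and PDE6B among them. The 45 h level, averaged over the arms, lay below the midpoint, with offsets of -0.39 ± 0.14 for OAZ3 and -0.82 ± 0.24 for PDE6B (log2, SE, 2 arms). The offsets of APOH (-0.20 ± 0.16) and VNN1 (-0.16 ± 0.099) pointed the same way and that of FHIT was 0.042 ± 0.13. The adjusted p was 0.9999 for each of the 5 genes. With all 3 PDE6B probes averaged its offset was 0.10.

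Genes with the most similar course over the 6 arrays were looked for among 171 named genes with a range of at least 1 (log2) that were well above background on at least 3 arrays. These correlations rest on 6 points that share their times and slides, and are a description. ALDOC, the brain isoform of the glycolytic enzyme aldolase, was nearest to OAZ3 (Pearson r = 0.990), to PDE6B (0.971) and to VNN1 (0.989). CUBN, the endocytic receptor cubilin, followed for OAZ3 (0.977) and PDE6B (0.958). ADM, the secreted peptide adrenomedullin, was among the 3 nearest to PDE6B (0.953) and VNN1 (0.988), and AMT, of the glycine cleavage system, was near VNN1 (0.989). BDH2, a short-chain dehydrogenase, was near OAZ3 (0.966) and FHIT (0.922). FHIT was closest to IL5 (0.943) and further to NECTIN4 (0.903), which was well above background on 4 arrays. APOH had other neighbours, APP (0.969), RHCE (0.948) and PYGL (0.934), of which RHCE and PYGL had larger values with than without tetracycline for 60 h minus 30 h, 1.36 against 0.56 and 1.21 against 0.56 (log2). Among the 5 members themselves r lay between 0.777, for PDE6B with FHIT, and 0.966, for OAZ3 with VNN1. A high r among them follows in part from their choice, as all were picked for rising on these arrays.

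Most other genes of the members' lists were not tested, and few of the tested ones passed for the change from 30 to 60 h. Not passing does not show that a gene was flat, as the fit had few degrees of freedom. Over all features the median change was 0.025, with quartiles of -0.196 and 0.21 (log2). Of 23 polyamine and antizyme genes 4 were measured, and 0 passed the test: OAZ1 was at 0.050, OAZ2 at 0.083, AZIN1 at 0.0078 and ARG2, an arginase, at 0.46 (list median 0.066). Of 21 germ cell genes 3 were tested, 0 rose and 1 fell. That gene was CABYR, a calcium-binding protein of the sperm tail, which fell by 1.40 ± 0.14 (log2, SE, adjusted p = 0.0357 by limma). The others were PRM2, a protamine, at 0.19 and TEKT1, a tektin, at 0.085, and LDHC was named but not above background often enough to be tested. Neither list held a tested gene that was called higher.

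Of 23 cyclic nucleotide phosphodiesterases 5 were named and 3 tested, with 0 past the threshold (list median 0.12). PDE6D, a prenyl-binding partner of the rod enzyme, was at 0.22, PDE1A at 0.12 and PDE6G, the inhibitory gamma subunit of the rod enzyme, at 0.095. By arm, PDE1A was at -0.28 without and 0.52 with tetracycline. PDE6A, the catalytic partner of PDE6B in rods, was named but not well above background on the 3 arrays of either arm. Of 40 photoreceptor genes 25 were named, 11 were tested and 0 passed (list median 0.057). The rod genes GNAT1, SAG, PRPH2 and CRX were among those named and not tested for want of signal. The largest changes were -0.53 for CNGA1, a rod channel subunit, -0.15 for GNB1, and 0.15 for STK38L and CCDC66.

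Of 32 apolipoprotein and lipoprotein genes 8 were tested, 1 rose and 0 fell (list median 0.19). NPC1, the late endosomal cholesterol transporter, rose by 0.64 ± 0.097 (adjusted p = 0.0413 by limma). The lipoprotein receptor gene VLDLR was at 1.28 ± 0.28, with 1.84 without and 0.73 with tetracycline, and did not pass (adjusted p = 0.0642). APOA2 was at 0.24 and NPC2 at 0.22. By arm, APOA2 was at 0.50 without and -0.017 with tetracycline, and NPC2 at 0.62 and -0.18. Of 37 liver plasma protein and clotting genes 7 were tested and 0 passed (list median 0.0088), with F3, the tissue factor gene, at -0.53, AFP at 0.50 and SERPINA1 at 0.27. These means hide unlike arms: F3 was at -1.15 without and 0.092 with tetracycline, AFP at 0.87 and 0.14, and SERPINA1 at 0.46 and 0.071.

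Of 16 genes linked to FHIT by family, site or partner, 3 were tested and 0 passed (list median -0.15). They were APTX, a histidine triad DNA repair enzyme, at -0.36, CTNNB1, the beta-catenin gene, at 0.20, and MDM2 at -0.15. None of the 28 coenzyme A and pantetheine genes beside VNN1 was named on the array. Of 34 PPAR-alpha target genes 10 were tested and 0 passed (list median 0.28). The fatty acid hydroxylase CYP4A38 was at 0.98 (adjusted p = 0.0586 by limma), FABP1, a fatty acid carrier, at -0.68, CYP4A11 at 0.62 and PPARD at -0.49. By arm, FABP1 was at -0.14 without and -1.22 with tetracycline, and CYP4A11 at 1.51 and -0.28. The signs within this list were mixed, with 4 genes higher and 3 lower in both arms.

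The proximal tubule list, to which VNN1 belongs, had the highest median of the lists, 0.61. That median is the value of ALPL, which was at 1.23 without and -0.016 with tetracycline. Of 32 genes 15 were named and 9 tested, 2 rose and 0 fell. SLC22A2, an organic cation transporter of the basolateral membrane, rose by 1.45 ± 0.13 (adjusted p = 0.0357 by limma), by 1.67 without and 1.24 with tetracycline. CUBN rose by 0.99 ± 0.17 (adjusted p = 0.0472), by 1.31 and 0.68. PCK1, of gluconeogenesis, was at 0.94 and the drug efflux pump gene ABCB1 at 0.84, and neither passed. The ABCB1 values had opposite signs in the arms, -0.63 without and 2.32 with tetracycline, and those of PCK1 were 1.59 and 0.29. Of the 9 tested genes 3 were higher and 1 was lower in both arms. AQP1, CA2 and SLC5A2, picked after their values were seen, were at -0.55, -0.40 and -0.17. By arm, AQP1 was at 0.54 without and -1.65 with tetracycline, and CA2 at 0.31 and -1.10. AQP1 was well above background on 4 arrays. The brush border genes ANPEP and MME were named and not tested for want of signal. As no feature passed with slide as a term or with any 1 array left out, the calls of SLC22A2, CUBN, NPC1 and CABYR were each lost there (adjusted p = 0.935 with the slide term).

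No cell type marker that was tested passed. For the kidney tubule epithelial markers 0 of 9 passed (median 0.16), with FXYD2, a regulator of the sodium pump, at 0.92, CLDN2 at 0.38, CDH1 at 0.30 and CGN at 0.20. FXYD2 was at 1.80 without and 0.046 with tetracycline, and CLDN2 at 1.23 and -0.47. Of the fibroblast markers 0 of 4 passed (median 0.094), of the leukocyte markers 0 of 2 (median 0.13) and of the endothelial markers 0 of 2 (median 0.11). THY1 at 0.21, COL1A1 at 0.12 and KDR at 0.21 had the largest changes of the named fibroblast and endothelial markers. By arm, COL1A1 was at -0.16 without and 0.40 with tetracycline, and KDR at -0.069 and 0.49.

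**Figure D5:**
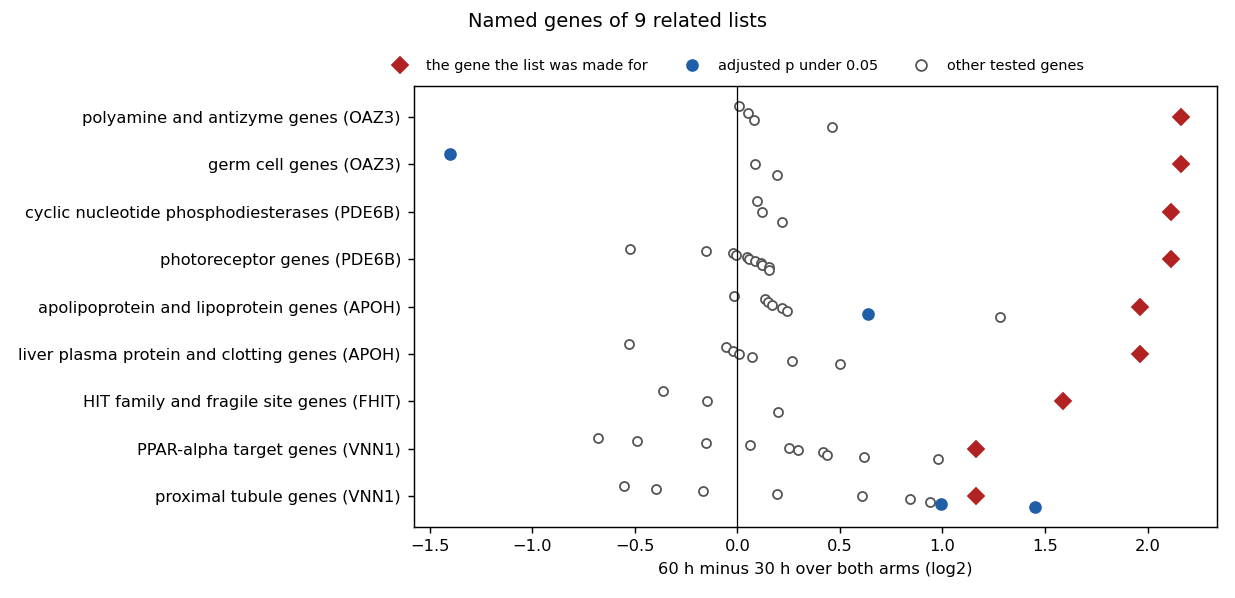
Change from 30 to 60 h over both arms, in log2 on the x axis, for the named and tested genes of 9 related lists. Red diamonds are the members the lists were built around, filled blue circles are genes with a limma adjusted p under 0.05 and open circles are the other tested genes. SLC22A2 at 1.45 and CUBN at 0.99 are the blue circles of the proximal tubule list, NPC1 at 0.64 that of the apolipoprotein list, and CABYR at -1.40 that of the germ cell list.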

How the data were processed

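The deposited files hold linear spot intensity, made by the authors with Agilent Feature Extraction 11.5.1.1 per the submitters' processing notes and the file headers (build CanFam3.1). That program, per the file headers, subtracted background from the intensity and arrays were not normalized to each other. In the deposited series matrix each array's intensity is multiplied by its own factor, 2.30 to 2.62 (column medians 150.9 to 171.5), with genes not centred; the origin of the factor is unknown.

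Control and outlier spots were left out, spots of a probe were averaged, and log2 signals were set relative to each array's 75th percentile. RefSeq accessions named the probes through a table of assembly UU_Cfam_GSD_1.0, whose coordinates were not used: 2326 of 43603 probes got 1 symbol and the rest are unnamed here. A gene was represented by its brightest probe, and 27581 features (998 named) well above background on all 3 arrays of an arm were tested with limma 3.58.1 in R 4.3.3 (lmFit, eBayes, two-sided, Benjamini-Hochberg), with arm and time as terms, 2 residual and 2.37 prior degrees of freedom. With 1 array per arm and time, p-values measure only the spread over times or arms, and the number of arrays limits the precision. The fit was tested on simulated data. Alternatives were quantile, median and series matrix scaling, normexp on median spot signal, mean of a gene's probes, kept outlier spots, other detection filters, a trended and robust prior, a slide term and each array left out. 0 value columns were unmapped.

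The members and the lists were chosen with earlier results of these data known; the count of within-slide steps was added after seeing the data. The rule names all members, the 3 named genes most like each, and from each list the genes that passed and up to 4 with the largest changes; a gene that the rule names is not reported here.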

Additional observations from a re-analysis of the deposited data

Results flagged for a closer look

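For 2 of the 5 genes the difference between the arms had opposite signs at 30 and 60 h. OAZ3 was at 0.20 at 30 h and -0.37 at 60 h, with minus without tetracycline on the log2 scale. APOH was at -0.41 at 30 h and 0.25 at 60 h. Both 30 h values lay within the scanner's error of their pair of arrays, 0.26 and 0.43, and the signs were opposite in 38.7% of all features. Each value compares 1 array with 1 array of the same slide, and the change of the difference with time was not tested.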

How the results depend on the processing

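The rise from 30 to 60 h kept its direction in all 140 alternative values of the 5 genes, from 0.20 to 2.72 (log2). These include the fits with 1 array left out. The members were chosen for this rise on the same arrays, so its sign could hardly change and is no support. Of these values 20 moved. A change in 1 arm was counted as moved beyond the scanner's error of its pair of arrays. A change over both arms was counted as moved beyond the SD of the changes in the 2 arms. The 1094 features called higher by limma became 1805 after normexp, 1685 with a trended and robust prior, 0 with a slide term and 0 with no detection filter (4066 at an unadjusted p under 0.05), and 0 to 0 with 1 array left out. Between the arms the 0 calls became 133 (normexp), 16 (trended and robust prior) and 0 to 1 (1 array left out). After normexp 63 features in place of 232 rose 2-fold in both arms, and 21 in place of 159 rose on both within-slide steps. PDE6B, APOH and VNN1 were not among the 63. Among arm differences of the members 7 of 80 alternatives changed sign and 0 passed: APOH was 0.016 with quantile scaling, 0.011 with median scaling, 0.024 after normexp, 0.29 with its probes averaged and -0.13 to 0.20 with 1 array left out, and PDE6B was 0.084 with its probes averaged. Of the 45 h offsets 3 of 80 changed sign: PDE6B was 0.10 with its probes averaged, and FHIT lay between -0.11 and 0.19 with 1 array left out. The cause of these moves was not tested. Median scaling moved the median change of all features without tetracycline by -0.11. Dim signals limit APOH and PDE6B at 30 h most.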
